A study of Mus musculus with 50 samples.

Results

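Mammary gland (MG) tumors of mice that received IGF1 were compared with MG tumors of mice that received insulin. The members are the 10 tumors labelled IGF1 and the 10 labelled insulin, 20 of the 50 tumors of the series, chosen by treatment label alone. The remaining 30 tumors, 10 each from mice given vehicle, glargine or X10, entered the fit only to estimate the spread between tumors. Vehicle values are given as the background for Exosc4, Rpl30, Pfdn5, Eif3l, the receptors, the chromosome 15 level and the sums of several gene lists. All groups were female p53R270H/+WAPCre mice, 8 weeks old when the injections began, which carry a mutant p53 allele that Cre switches on; the Cre is driven by the whey acidic protein promoter and therefore acts in the MG epithelium. The agents were injected under the skin every other day until a tumor developed. Tumors were taken once they measured 1 cm3, with 24 h between the final injection and collection. The study chose tumors resembling epithelial to mesenchymal transition (EMT) with a latency close to the median of their treatment group. It reports that IGF1 significantly shortened tumor latency and that insulin did not. Age at collection and length of treatment may therefore differ between the IGF1 and insulin tumors, and the labels give neither. Doses were not given in the sources used here. Each tumor has its own number in the labels, which do not say whether it is the number of a mouse, and the p-values measure the spread between tumors.

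Insulin binds mainly the insulin receptor (INSR), which controls glucose and lipid metabolism, and IGF1 binds mainly the related IGF1 receptor (IGF1R), which drives growth and division in the mammary epithelium. Both receptors are tyrosine kinases that dock IRS and SHC adaptors and pass the signal on through a PI3K, AKT and mTOR branch and a RAS and ERK branch. Ribosome production, respiration and glycolysis are known to respond to these branches. The comparison asks how tumors that arose under an IGF1R ligand differ in gene expression from tumors that arose under an INSR ligand.

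Expression was given as RPKM, that is, reads corrected for the length of the gene and for the size of the library. Differences are given as IGF1 minus insulin on the log2(RPKM + 0.5) scale, which understates the change of genes with low values. Library sizes recovered from the RPKM steps were 42.3 ± 4.26 M reads in the IGF1 tumors (SD, n = 10; 37.4 to 51.9) and 40.1 ± 4.96 M reads in the insulin tumors (SD, n = 10; 34.1 to 51.9), a difference of 2.25 M reads that did not pass a two-sided permutation test (100000 resamples, p = 0.299). Some tumors stood apart. The tumor insulin_13 had a summed RPKM of salivary gland markers of 107022, where no other insulin tumor exceeded 630.0 and no IGF1 tumor exceeded 154.9. The tumor insulin_8 had the highest sums of B and plasma cell markers, 339 RPKM, and of T and NK cell markers, 490.0 RPKM, among the 20 tumors. The tumor IGF1_160 had the highest sums of ribosomal protein, nuclear respiratory complex, glycolysis and hypoxia genes of the 20 tumors, and the lowest sum of the mitochondrially encoded genes.

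At an adjusted p-value under 0.05, 1 of 16733 tested genes differed between IGF1 and insulin tumors (limma with Benjamini-Hochberg adjustment), which is 0.00598% of the genes. That gene was Exosc4. At an unadjusted p-value under 0.05, 1221 genes differed (7.3%), of which 638 were higher in IGF1 tumors (3.81% of the tested genes) and 583 were higher in insulin tumors (3.48%). The balance of the 2 directions moved with the scaling and with single tumors: 887 of 1338 genes were higher in IGF1 tumors after quantile normalization, 537 of 1272 after upper quartile scaling, 528 of 1279 without insulin_13 and 530 of 879 without IGF1_160, where the genes higher in insulin tumors numbered 349. For 0 genes (0.0%) did the IGF1 values lie wholly outside the range of the insulin values. The counts at an unadjusted p-value below are descriptions, to be read against these shares, since no gene but Exosc4 passed the adjusted threshold. Of 46 named genes under that level, 34 stayed under it in each of the other fits made (other settings or a tumor left out) and 12 did not, which are pointed out where they are described. Medians of gene lists close to 0 show no direction: in 16 of 42 lists, with medians between -0.31 and 0.14, the median took both signs over the 20 fits that each left out a tumor.

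Exosc4 encodes a core subunit of the RNA exosome, the complex that trims and degrades RNA from its 3′ end. It lies on the plus strand at chr15:76327397-76330677 (GRCm38). In IGF1 tumors Exosc4 had a lowest, median and highest value of 20.2, 30.3 and 41.4 RPKM, and in insulin tumors of 17.0, 20.1 and 23.4 RPKM. Of the 10 IGF1 tumors, 9 were above the highest insulin tumor, and IGF1_124 lay within the insulin range. The log2 difference of Exosc4 was 0.545 (SE 0.103, limma adjusted p = 0.0491), with a 95% confidence interval of 0.34 to 0.75. Vehicle tumors, at 19.4, 26.0 and 30.2 RPKM, overlapped both groups. The call did not hold in every setting: the log2 difference stayed between 0.49 and 0.60 over 32 alternatives, but the adjusted p-value was between 0.00417 and 0.400, and it was under 0.05 in 5 of the 20 fits that left out a tumor and in 4 of the 12 others.

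The other 11 genes with the smallest p-values among those higher in IGF1 tumors did not pass the adjusted threshold. Rpl30, a protein of the large ribosomal subunit, was at 269, 357 and 515 RPKM (lowest, median and highest) in IGF1 tumors and at 202, 241 and 290 RPKM in insulin tumors. Again 9 of 10 IGF1 tumors exceeded every insulin tumor, with a log2 difference of 0.58 (SE 0.123, limma adjusted p = 0.178). Pfdn5, a subunit of the prefoldin chaperone that hands actin and tubulin to the folding machinery, was at 169, 199 and 354 RPKM against 134.8, 157 and 191 RPKM, and 8 IGF1 tumors exceeded every insulin tumor. Reads of Pfdn5 and Myg1 cannot be cleanly separated, since both genes overlap on the same strand, and Rpl30 has processed copies in the genome. Eif3l, a subunit of the translation initiation factor eIF3, was at 98.9, 116.4 and 153 RPKM against 81.6, 90.5 and 99.5 RPKM, with 9 IGF1 tumors above the insulin range. For Exosc4, Rpl30, Pfdn5 and Eif3l the insulin tumors had the lowest mean of the 5 treatment groups. Vehicle medians were 310 RPKM for Rpl30, 205 RPKM for Pfdn5 and 97.0 RPKM for Eif3l. The X10 median of Rpl30, 393 RPKM, was above that of the IGF1 tumors.

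The remainder of that group had roles in ribosome assembly, splicing, DNA damage checking, cilia and respiration. Utp23, a factor in the processing of ribosomal RNA, had a log2 difference of 0.40, and Zfp622, which acts in the maturation of the large ribosomal subunit, one of 0.43. Phf5a, a component of the SF3b splicing complex, had a log2 difference of 0.50, and the splicing-related Rbmx2 also 0.50. Rad1, part of the clamp that senses damaged DNA, had a difference of 0.47, Ift27, of intraflagellar transport, one of 0.51, Ndufb9, a subunit of respiratory complex I, one of 0.48 and Myg1, a nuclease, one of 0.50. In each of these 8 genes between 4 and 8 IGF1 tumors exceeded all insulin tumors, and limma adjusted p-values were 0.490. Of the 12 genes, 11 lie on chromosome 15. Rbmx2, on chromosome X, is the exception.

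The chromosomes were therefore compared, a grouping chosen after the values were seen and described here without a test. Of 539 tested protein-coding genes on chromosome 15, 109 (20.2%) were higher in IGF1 tumors at an unadjusted p-value under 0.05 and 8 were higher in insulin tumors. Over all 13520 protein-coding genes these shares were 3.91% higher in IGF1 tumors and 3.39% higher in insulin tumors. Chromosome 15 thus held 3.99% of the tested protein-coding genes but 20.6% of the 528 that were higher in IGF1 tumors, and 31 of the 50 with the smallest p-values. The median log2 difference on chromosome 15 was 0.146, and 71.8% of its genes had a positive difference. The difference was spread along the chromosome: in windows of 20 Mb the median was 0.14, 0.18, 0.17, 0.17 and 0.10 from 20 Mb to the distal end, while the first 20 Mb, with 46 genes, had a median of -0.01. Over all alternatives and left-out tumors the number of genes higher in IGF1 tumors on chromosome 15 was between 87 and 121. Myc, a growth-promoting transcription factor on chromosome 15 that was looked up after the pattern was seen, had a log2 difference of 0.20 (SE 0.141, limma adjusted p = 0.753).

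**Figure D1:**
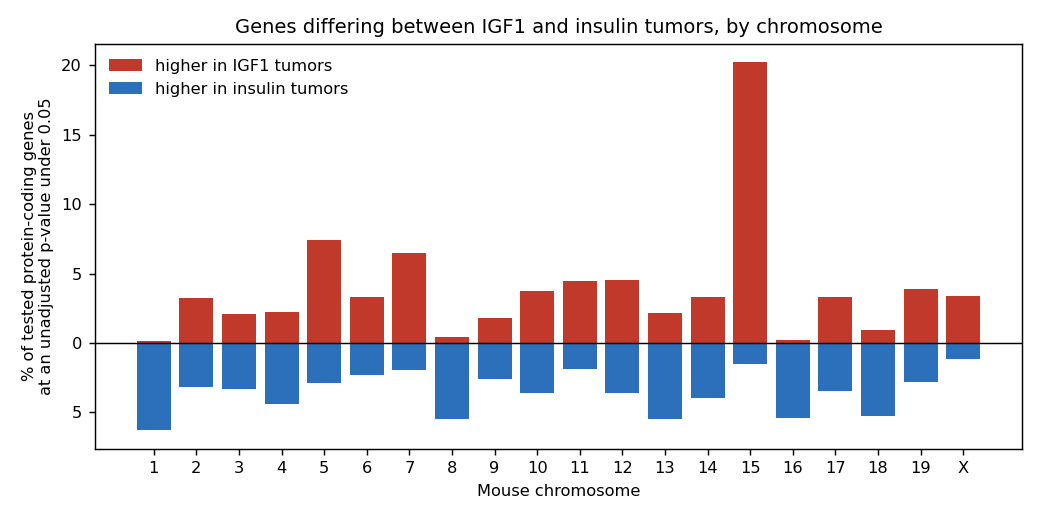
Percentage of the tested protein-coding genes of each mouse chromosome with an unadjusted limma p-value under 0.05, drawn upward for genes higher in IGF1 tumors and downward for genes higher in insulin tumors. Chromosome 15 reached 20.2% upward, while chromosomes 1, 8 and 16 had almost no gene in that direction.

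Other chromosomes leaned the opposite way. On chromosome 1, 50 of 795 genes were higher in insulin tumors and 1 was higher in IGF1 tumors, with a median log2 difference of -0.116. On chromosome 16 the counts were 23 and 1 of 429 genes (median -0.105) and on chromosome 8 they were 39 and 3 of 715 (median -0.09). These counts rested more on single tumors than that of chromosome 15: without IGF1_160 the genes higher in insulin tumors numbered 23 on chromosome 1, 17 on chromosome 8 and 13 on chromosome 16, without IGF1_132 or IGF1_158 they numbered 24 on chromosome 8, and without insulin_21 or IGF1_135 they numbered 13 and 12 on chromosome 16. Chromosomes 5 and 7 leaned toward IGF1 tumors, with 63 against 24 of 845 genes and 66 against 20 of 1021 genes.

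A chromosome level was then computed for each tumor, the median over genes of the log2 value relative to the median tumor, less the same median over all genes of that tumor. For chromosome 15 it was between -0.033 and 0.328 in the IGF1 tumors, with a median of 0.094, and between -0.207 and 0.108 in the insulin tumors, with a median of -0.059. The levels of 5 IGF1 tumors exceeded those of all insulin tumors, whereas IGF1_124, IGF1_136, IGF1_143 and IGF1_158 lay between -0.033 and -0.022, within the insulin range. The group means were 0.093 ± 0.123 and -0.064 ± 0.095 (SD, n = 10 each), and their difference of 0.157 was between 0.131 and 0.176 when a tumor was left out. Vehicle tumors ranged from -0.238 to 0.209, glargine tumors from -0.125 to 0.189 and X10 tumors from -0.171 to 0.328, so that levels as high as those of the IGF1 tumors also occurred under other treatments. Chromosome levels varied within the groups as well: on chromosome 3 they ran from -0.435 to 0.320 in IGF1 tumors and from -0.116 to 0.422 in insulin tumors, with nearly equal means, and the SD over tumors was larger in the IGF1 than in the insulin group on 17 of 20 chromosomes.

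**Figure D2:**
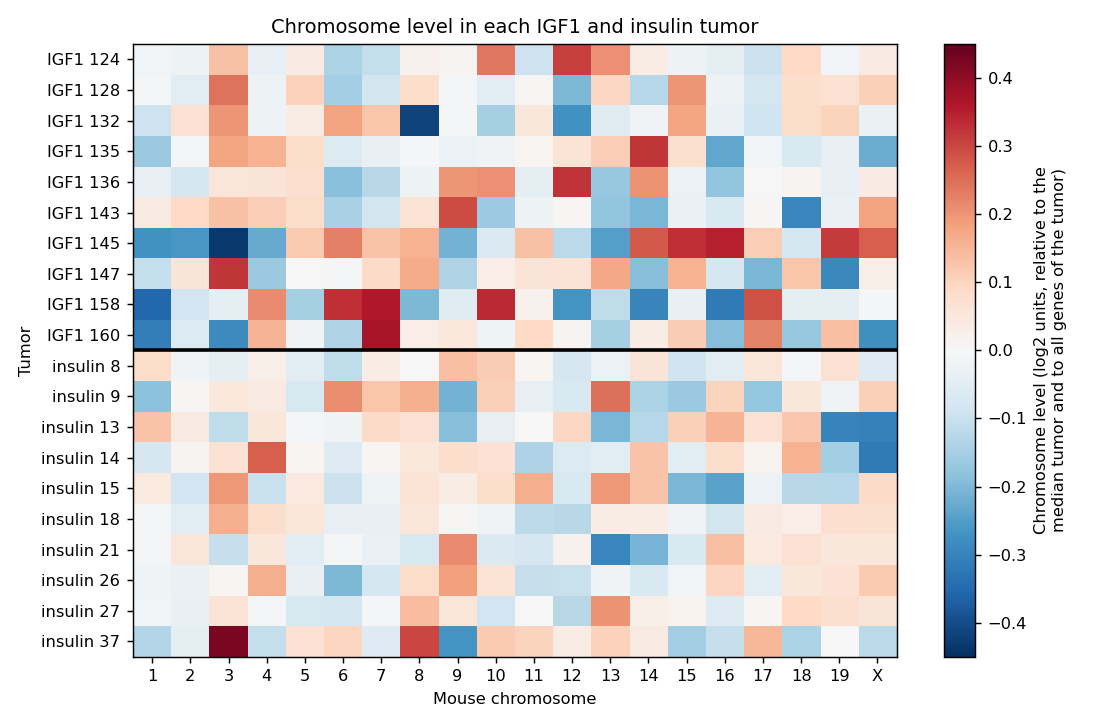
Chromosome level (log2 units, relative to the median tumor and to all genes of the tumor) for the 20 chromosomes in columns and the 10 IGF1 and 10 insulin tumors in rows. The chromosome 15 column is above 0.1 in 5 IGF1 tumors beyond the insulin range and near 0 in 4, and IGF1_145 and IGF1_158 show the widest ranges over the chromosomes.

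The 12 genes with the smallest p-values among those higher in insulin tumors did not pass the adjusted threshold, and lie on 8 nuclear chromosomes and the mitochondrial genome. Fzd1, a receptor for Wnt ligands, was at 6.18, 11.3 and 25.1 RPKM (lowest, median and highest) in IGF1 tumors and at 12.1, 22.1 and 36.1 RPKM in insulin tumors. In 5 IGF1 tumors Fzd1 was below the lowest insulin tumor, and the log2 difference was -0.95 (SE 0.249, limma adjusted p = 0.490). Lgr5, a stem cell receptor for R-spondins that strengthens Wnt signaling, was at 0.147, 1.38 and 2.38 RPKM against 0.663, 3.70 and 5.24 RPKM, a log2 difference of -1.18 with overlapping groups. Frzb, a secreted Wnt antagonist, was at 0.085, 0.380 and 0.890 RPKM against 0.302, 1.48 and 3.34 RPKM. These genes were met singly by their p-values, and no Wnt gene list was examined.

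Cpxm2, a carboxypeptidase-like protein, had the largest difference of the 12, -2.12 (SE 0.585, limma adjusted p = 0.490). It was at 0.840, 16.8 and 109 RPKM in IGF1 tumors and at 21.5, 81.1 and 204 RPKM in insulin tumors, with 5 IGF1 tumors below the insulin range and IGF1_160 above the insulin median. The transcription factor gene Zfhx4 had a log2 difference of -1.05 and Crtc1, a coactivator of CREB, one of -0.49. In Crtc1, 8 of 10 IGF1 tumors lay below all insulin tumors, the most of the 12 genes. Cd59a, an inhibitor of complement lysis, had a difference of -0.79, Slc2a13, a myo-inositol transporter on chromosome 15, one of -0.68 and the synaptic scaffold gene Shank1 one of -0.71. Etl4 and Cped1 had differences of -0.88 and -1.06, and the mitochondrial tRNA gene mt-Tk, with values under 2 RPKM in every IGF1 and insulin tumor, one of -0.92.

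**Figure D3:**
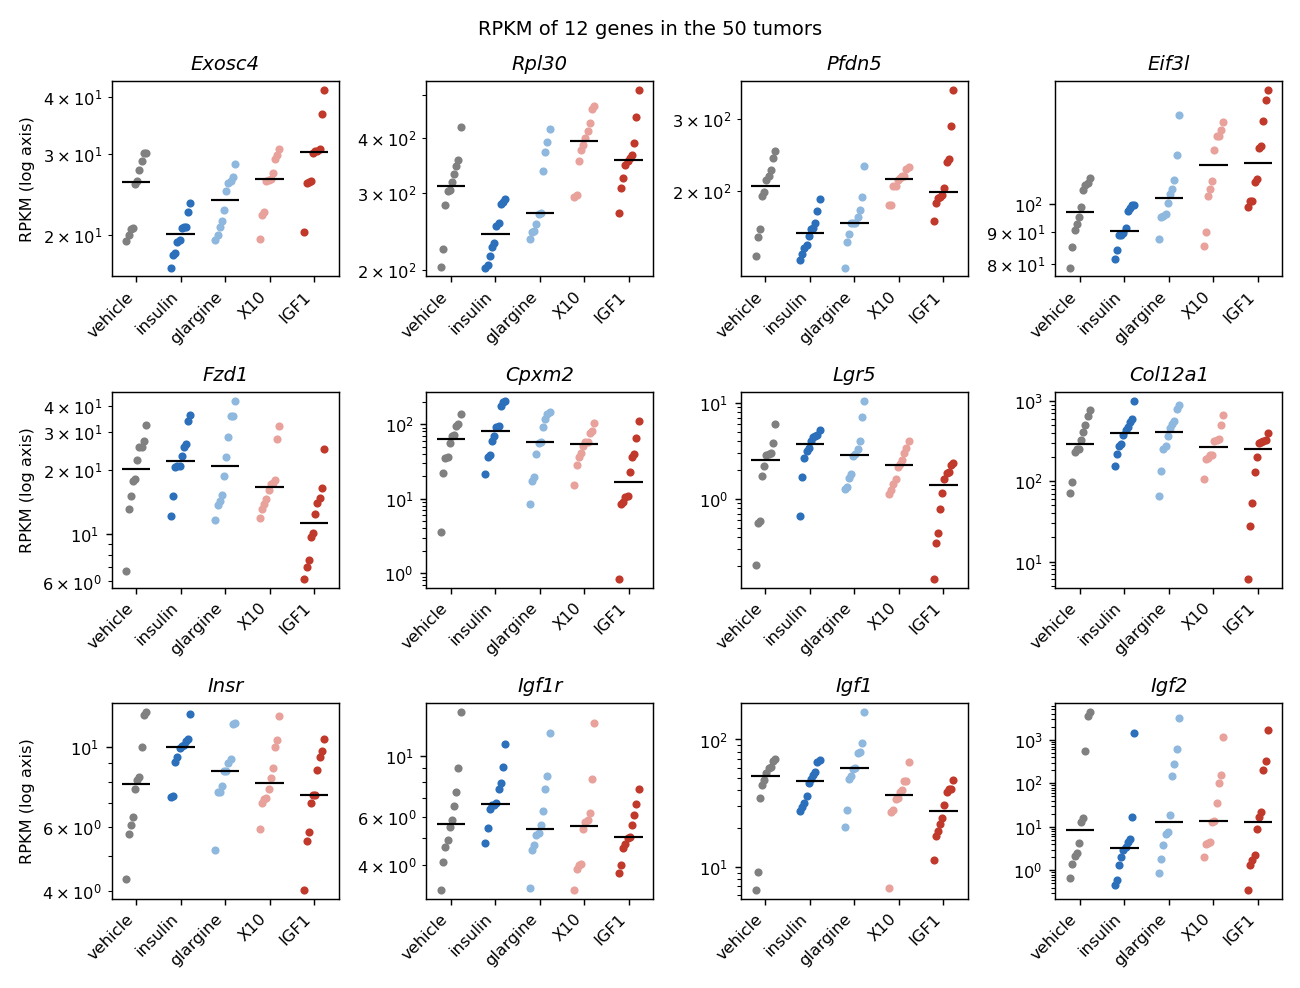
RPKM of 12 genes on log axes in all 50 tumors, a point per tumor and a line at the median of each group of 10. IGF1 points sit above nearly all insulin points for Exosc4, Rpl30, Pfdn5 and Eif3l. For Fzd1, Cpxm2, Lgr5, Col12a1, Insr, Igf1r and Igf1 the groups overlap and some IGF1 points extend below the insulin points. The Igf2 points overlap widely.

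The genes of the receptors and their ligands came next. Of 5 tested receptor and ligand genes, 0 passed the adjusted threshold, and 4 had lower values in IGF1 tumors. At an unadjusted p-value under 0.05 the count was 1 (Insr), 2 with quantile normalization or upper quartile scaling, and between 0 and 3 when a tumor was left out. Insr was at 4.03, 7.35 and 10.5 RPKM in IGF1 tumors and at 7.24, 9.99 and 12.3 RPKM in insulin tumors, a log2 difference of -0.37 with a 95% confidence interval of -0.68 to -0.05 (limma adjusted p = 0.634, unadjusted p = 0.0227). Without IGF1_160 it no longer reached an unadjusted p-value of 0.05. Vehicle tumors had Insr at 4.32, 7.88 and 12.5 RPKM and Igf1r at 3.25, 5.66 and 14.4 RPKM. Igf1r was at 3.74, 5.04 and 7.54 RPKM against 4.81, 6.67 and 11.0 RPKM, and the interval of its difference of -0.40 ran from -0.81 to 0.01. In each of these receptors 4 IGF1 tumors lay below all insulin tumors. The endogenous Igf1 transcript was at 11.2, 27.3 and 48.0 RPKM against 27.6, 47.4 and 68.9 RPKM, with an interval of -1.45 to 0.02 and 5 IGF1 tumors below the insulin range. Igf2, a fetal growth factor, ran from 0.355 to 1685 RPKM in IGF1 tumors and from 0.459 to 1449 RPKM in insulin tumors, where the next highest value after that of insulin_21 was 17.0 RPKM. Its log2 difference was 1.61 (interval -1.53 to 4.75). The receptor that clears Igf2, Igf2r, had a difference of -0.12 (interval -0.54 to 0.31). The insulin gene Ins2 and the receptor gene Insrr were below the expression minimum.

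Of the 10 tested IGF binding proteins and their regulators, which control how much ligand reaches the receptors, 0 differed even at an unadjusted p-value under 0.05, and the median log2 difference was -0.05. Igfbp6 had the largest difference, 0.88, with an interval of -0.21 to 1.98. Its group medians were nearly equal, 13.1 RPKM in IGF1 and 13.8 RPKM in insulin tumors, and 2 tumors, IGF1_145 at 239.9 RPKM and IGF1_158 at 589.5 RPKM, were far above the insulin maximum of 26.9 RPKM. Igfbp5 had a difference of -0.84 (interval -2.22 to 0.55), Igfbp7 of -0.29, Igfbp3 of 0.12, Igfbp4 of 0.15 and Igfbp2 of 0.07. The stanniocalcins Stc1 and Stc2, which inhibit the proteases that free IGF from its binding proteins, had differences of 0.60 and -0.16, and those proteases, Pappa and Pappa2, of -0.36 and -0.18.

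Few signaling genes below the receptors reached an unadjusted p-value of 0.05. Of 18 receptor adaptor genes, 17 had lower values in IGF1 tumors, with a median of -0.18, but 0 passed an unadjusted p-value of 0.05. That number was 2 without insulin_13 and with quantile normalization, and 3 with upper quartile scaling, all higher in insulin tumors. Irs2, an insulin receptor substrate, was at 0.974, 3.20 and 6.09 RPKM against 2.49, 4.44 and 10.9 RPKM (log2 difference -0.58, interval -1.18 to 0.01), while Grb2, which links receptors to RAS, had the only positive difference, 0.08. In the PI3K, AKT and FOXO list 1 of 23 genes was higher in each group at an unadjusted p-value under 0.05 (median -0.19, and -0.09 without IGF1_160). Pik3r1, the regulatory subunit of PI3K, had a difference of -0.59, with 7 IGF1 tumors below all insulin tumors, and Trib3, an inhibitor of AKT induced by stress, one of 0.76, which stayed under that level in 9 of 12 other settings and in 8 of the 20 fits that left out a tumor. In the mTOR list it was likewise 1 of 18 in each direction (median -0.04), namely Akt1s1 (0.34) and Eif4ebp2 (-0.41), each in 15 of the 20 fits that left out a tumor and neither when the 20 tumors were fitted alone. The RAS and ERK kinases gave 0 of 15 (median -0.05), with Ksr1, a scaffold of the cascade, at -0.30 and Map2k2 at 0.21.

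Genes that report on recent ERK activity gave few counts. Among 13 ERK feedback genes, Etv4 was higher in IGF1 tumors (0.47) and Spry1 higher in insulin tumors (-0.69) at an unadjusted p-value under 0.05, with a median of -0.04 over the list. Neither gene was under that level with quantile normalization, Etv4 was not without insulin_13, and they stayed under it in 11 and 12 of the 20 fits that left out a tumor. Among 23 immediate early genes the median was 0.01. The 3 that were higher in insulin tumors were Cyr61 (-0.87), Egr1 (-0.58) and Egr2 (-0.60), and Klf4 was at 0.37, under that level in 8 of the 20 fits that left out a tumor and neither with quantile normalization nor with upper quartile scaling. Cyr61, a matrix-bound growth regulator, was at 21.7, 58.4 and 117.6 RPKM in IGF1 tumors against 69.97, 102 and 144 RPKM in insulin tumors, and 6 IGF1 tumors were below the insulin range. The Id and BMP feedback genes gave 0 of 12 (median -0.02), with Id2 at -0.28 and Id3 at 0.28.

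The list with the most members higher in IGF1 tumors was that of the cytosolic ribosomal proteins, the structural parts of the ribosome. All 76 had a positive difference, with a median of 0.29 (range 0.05 to 0.58), where the median over all tested genes was -0.014. At an unadjusted p-value under 0.05, 27 of the 76 (35.5%) were higher in IGF1 tumors and 0 were higher in insulin tumors. Only 4 of these genes lie on chromosome 15, and of the other 72, 24 were higher in IGF1 tumors, with a median of 0.28. After Rpl30, the members with the smallest p-values were Rpl8 (0.42) on chromosome 15 and Rpl10a (0.42) on chromosome 17. Summed over the list, IGF1 tumors had 30173, 40868 and 65402 RPKM (lowest, median and highest) and insulin tumors 28672, 35066 and 38537 RPKM, with 7 IGF1 tumors above all insulin tumors. Vehicle tumors had 31865 to 57354 RPKM. With quantile normalization the median was 0.19, against 0.02 over all genes, and the count 20. The count rested on single tumors: it was 14 without IGF1_160 (median 0.20), 17 without IGF1_145 and 41 without IGF1_124. Highly expressed genes as a class also leaned this way. Of 1165 protein-coding genes outside chromosome 15 with a mean of at least 100 RPKM, 7.8% were higher in IGF1 tumors. In this class 2.2% were higher in insulin tumors, and the median was 0.05, with the genes of the ribosomal protein list not taken out. Ribosomal protein genes have many processed copies, between which reads may have been divided.

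The nuclear genes of the respiratory chain leaned the same way. Of 36 complex I subunits, 10 (27.8%) were higher in IGF1 tumors and 0 were lower at an unadjusted p-value under 0.05, with a median of 0.20, and of 40 subunits of complexes II to V, 12 (30.0%) were higher and 0 lower, with a median of 0.21. Ndufb9 on chromosome 15 was at 111.2, 172 and 248 RPKM in IGF1 tumors and at 95.8, 121 and 178 RPKM in insulin tumors. Ndufa12 (0.47), Uqcr11 (0.47) and Atp5g2 (0.36, on chromosome 15) were among the others. The sum over complex I exceeded all insulin tumors in 6 IGF1 tumors, and was 2257 to 3363 RPKM in vehicle tumors. Its count was 6 with quantile normalization, 5 without IGF1_160 and 6 without IGF1_132 or insulin_14, and that of complexes II to V was at least 9 in the same fits. Of the 13 mitochondrially encoded genes of the chain 0 differed at an unadjusted p-value under 0.05, and their median was -0.10 (-0.22 with quantile normalization), with mt-Nd4l at -0.71 and mt-Co2 at 0.17. Among 21 genes of the tricarboxylic acid cycle 1 was higher in IGF1 tumors (Idh2, 0.31, but not with quantile normalization and in 15 of the 20 fits that left out a tumor) and the median was 0.09, with Idh1 at -0.21.

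The count of glycolysis genes rested on IGF1_160 more than on any other tumor. Of 33 genes, 7 were higher in IGF1 tumors at an unadjusted p-value under 0.05, with a median of 0.20. Pfkfb2 was higher in insulin tumors at that level (-0.36), but not without insulin_13, with quantile normalization or with a pseudocount of 1, and it stayed at that level in 9 of the 20 fits that left out a tumor. Pgk1, an enzyme of the ATP-yielding steps, was at 92.1, 204 and 304 RPKM in IGF1 tumors against 75.1, 114.9 and 173.6 RPKM in insulin tumors, and 6 IGF1 tumors exceeded all insulin tumors. Slc16a3, the lactate exporter, had the largest difference, 1.05. The sum over the list was 15108 RPKM in IGF1_160, while the next IGF1 tumor had 8733 RPKM and the highest insulin tumor 7447 RPKM. The highest vehicle tumor had 10617 RPKM. Without IGF1_160, 1 of the 33 genes was higher in IGF1 tumors, and without insulin_15, the tumor with the lowest sum, it was 2. Counts were also 4 without insulin_8 or IGF1_147, and 3 without insulin_37. The hypoxia-induced targets of HIF had positive differences in 19 of 20 genes and a median of 0.35 (0.23 without IGF1_160), with 1 gene, Higd1a (0.56), at an unadjusted p-value under 0.05 and Car12 at -1.09. IGF1_160 had the highest HIF target sum as well, 2903 RPKM, where insulin tumors had up to 1860 RPKM and vehicle tumors up to 2294 RPKM.

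Lipid and stress genes gave low counts. Fatty acid synthesis gave 0 of 20 genes (median -0.11, with Scd1 at -0.74 and Dgat1 at 0.37), cholesterol synthesis 0 of 23 (median -0.10, with Hsd17b7 at -0.53 and Sqle at 0.34) and fatty acid oxidation 0 of 19 (median -0.05, with Echs1 at 0.18 and Hadh at -0.20). Of 23 unfolded protein and ATF4 genes, 3 were higher in IGF1 tumors, Atf4 (0.35, on chromosome 15), Ddit3 (0.66) and Trib3, and 1 was higher in insulin tumors, Dnajc3 (-0.32), with a median of 0.06. These counts were 5 and 0 without insulin_13 (median 0.14) and 3 and 3 with quantile normalization (median 0.0). The number higher in IGF1 tumors was between 1 and 5 when a tumor was left out, and Dnajc3 stayed under an unadjusted p-value of 0.05 in 9 of those 20 fits.

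Proliferation genes overlapped between the groups. The DNA replication sum was above all insulin tumors in 5 IGF1 tumors and below all of them in 1. For the mitosis sum these numbers were 3 and 1. DNA replication genes gave 0 of 25 at an unadjusted p-value under 0.05 with a median of 0.15, which was 0.08 without insulin_13 or IGF1_135, and up to 2 genes when a tumor was left out. Mitosis genes gave 0 of 25 with a median of 0.12, between 0.03 and 0.22 when a tumor was left out. Mki67, a marker of cycling cells, was at 6.88, 17.6 and 27.5 RPKM in IGF1 tumors and at 14.7, 20.1 and 28.7 RPKM in insulin tumors (log2 difference -0.24, interval -0.65 to 0.18). Ube2c had a difference of 0.36, Mcm7 of 0.21 and Gins2 of -0.12. The D cyclins and cell cycle inhibitors gave 0 of 15 (median 0.07), with Cdkn2d at 0.35. Trp53, whose mutant allele all groups carry, was at 6.60, 38.2 and 86.6 RPKM in IGF1 tumors and at 32.2, 46.4 and 69.8 RPKM in insulin tumors, and 2 tumors, IGF1_145 and IGF1_158, lay below all insulin tumors. Of 57 replication-dependent histone genes, 24 passed the expression minimum, and 7 of these, with near-identical copies in the same clusters, were higher in IGF1 tumors (median of the 24 0.25, and 0.09 without IGF1_160), among them Hist1h2af (0.67). Their number was 2 without IGF1_135 and 4 without IGF1_160, insulin_13 or insulin_21. The RNA was Poly-A selected, and how completely that selection captured histone transcripts was not tested. The histone counts are therefore not read as a measure of proliferation.

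**Figure D4:**
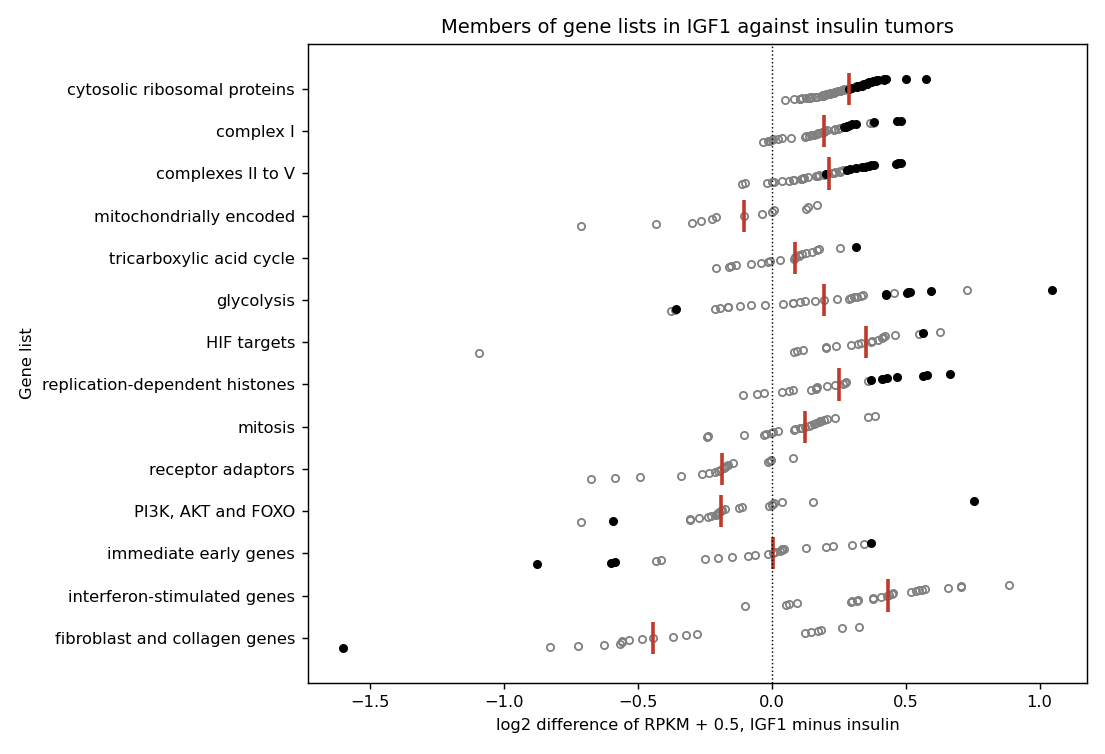
Log2 difference of RPKM + 0.5, IGF1 minus insulin, for each tested member of 14 gene lists. A point is a gene, filled where the unadjusted limma p-value is under 0.05, and the red line is the median of the list; all 76 ribosomal protein genes lie to the right of 0, and 17 of 18 receptor adaptor genes lie to the left.

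Markers were used to check what the tumors contained, and in bulk tissue fewer cells of a type and less RNA per cell cannot be told apart. Vim, the intermediate filament of mesenchymal cells, was at 2435 to 5180 RPKM in IGF1 tumors and at 2267 to 3642 RPKM in insulin tumors, and Cdh1, encoding E-cadherin, at 0.993 to 8.59 and 3.56 to 21.0 RPKM, so that both groups carried Vim far above Cdh1. Of the 6 epithelial EMT genes that the study names from these tumors, and which are not independent evidence, 0 differed at an unadjusted p-value under 0.05 (median -0.14, and 0.09 without insulin_13), with Cdh1 at -1.16 (interval -2.37 to 0.04) and Wnt4 at 0.10. Of its 11 mesenchymal genes, 1 was higher in insulin tumors, Pdgfrb (-0.71), and the median was -0.05, while Vim had a difference of 0.36 (interval -0.06 to 0.78). In 8 of 10 IGF1 tumors Vim was above all insulin tumors, and the lowest IGF1 value, in IGF1_158, was below the insulin median. The sum over the 11 genes, most of it from Vim, also exceeded all insulin tumors in 8 IGF1 tumors. Luminal markers gave 0 of 15 (median -0.42, with Krt18 at -1.004 and Gata3 at 0.13), and their median was -0.17 without insulin_13, -0.25 without IGF1_128, -0.26 without IGF1_147 and -0.70 without IGF1_145. The counts were 0 as well for basal markers, of 9 genes (median -0.15, between -0.37 and -0.01 when a tumor was left out, with Myh11 at -0.46 and Lgals7 at 0.15), and for milk proteins, of 9 genes (median 0.15, with Csn1s1 at 0.99 and Glycam1 at -1.17).

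Matrix genes had mostly negative differences. Of 19 fibroblast and collagen genes, 13 had negative differences, the median was -0.44 (-0.27 without IGF1_132), and 1 gene, Col12a1, was higher in insulin tumors at an unadjusted p-value under 0.05. Col12a1, a collagen that decorates fibrils, was at 6.12, 250 and 400 RPKM in IGF1 tumors and at 157, 404 and 995 RPKM in insulin tumors (log2 difference -1.60, SE 0.532, limma adjusted p = 0.539). Timp1, at 0.33, had the most positive difference of the list. The summed level of the list was 6681 to 35990 RPKM in IGF1 tumors and 8088 to 30304 RPKM in insulin tumors, with 6324 to 40558 RPKM in vehicle tumors. The number of genes higher in insulin tumors was 4 without insulin_37 or IGF1_145, 3 without IGF1_143 and 2 without insulin_26, IGF1_136 or IGF1_160.

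Among blood and immune markers, interferon-stimulated genes had positive differences in 23 of 24 members and a median of 0.43, yet 0 passed an unadjusted p-value of 0.05, and the summed level ran from 222 to 2136 RPKM in IGF1 tumors and from 196 to 1095 RPKM in insulin tumors, with 365 to 3051 RPKM in vehicle tumors. The median was 0.17 without IGF1_136, the tumor with the highest sum. Isg15 had a difference of 0.88 (interval -0.22 to 1.98). T and NK cell markers had negative differences in 16 of 17 members (median -0.47, 0 at an unadjusted p-value under 0.05, with Il2rb at -0.52 and Gzma at 0.30) and B and plasma cell markers in 7 of 7 (median -0.63, 0 at that level, with Igj at -1.51). Without insulin_8 these medians were -0.19 and -0.15. Macrophage markers gave 0 of 14 (median 0.14, with Csf1r at -0.21 and F13a1 at 0.27), and their median was -0.07 without insulin_13, the tumor with the lowest sum. Other blood and vessel markers gave counts of 0 too, with medians that took both signs when single tumors were left out: neutrophil markers 0 of 10 (median -0.10, with Mmp9 at -0.98 and Retnlg at 0.16), endothelial markers 0 of 12 (median -0.02, with Vwf at -0.48 and Cldn5 at 0.40) and red blood cell markers 0 of 6 (median 0.07, and 0.28 without insulin_13, with Slc4a1 at -0.35 and Hbb-bs at 0.22).

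Markers of neighbouring tissue were high in some tumors. Of 10 tested salivary gland markers, 6 were higher in insulin tumors with insulin_13 in the fit, led by Klk1 (-1.34), and 0 without it, when the median went from -1.32 to -0.36. Skeletal muscle markers gave 0 of 15 (median -0.31, and 0.03 without insulin_13, with Myh2 at -0.68 and Myh4 at 0.75), and their sums were 3027 and 2535 RPKM in IGF1_135 and IGF1_145, and 3337, 1376 and 1269 RPKM in insulin_9, insulin_13 and insulin_15. Adipocyte markers gave 0 of 11 (median -0.10, with Lipe at -0.27 and Pnpla2 at 0.08). Of 4 tested skin markers, 1 was higher in IGF1 tumors, Krt10 (0.35, median of the list 0.20), and of 9 nerve markers, 1 was higher in insulin tumors, Mbp (-0.61, in 17 of the 20 fits that left out a tumor, with Pmp22 at 0.27 and a median of -0.17). The skin-defining genes Krt1, Lor and Flg were below the expression minimum. The part of these tissues in the gene differences above was not tested.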

How the data were processed

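RNA of 50 MG tumors was Poly-A selected and sequenced on the Ion Proton. The authors aligned reads to GRCm38 with TopHat2 2.0.10 and Bowtie2, counted them per gene with HTSeq 0.6.1 and deposited RPKM values, counts scaled to library size and gene length. Reads and library sizes were recovered from the steps of the RPKM values for 16258 of the 16733 tested genes (97.2%); counting error was not compared with the spread between tumors. The recovery and the gene test were tested on simulated data.

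Of 37701 genes, the 16733 whose RPKM averaged 0.5 or more over the 50 tumors were fitted on the log2(RPKM + 0.5) scale with limma 3.58.1 (R 4.3.3), with 5 treatment groups and an intensity trend, and IGF1 minus insulin was tested with Benjamini-Hochberg adjustment. No covariate or block was used. Positions and gene types are from GENCODE M21, which held 16551 of the tested genes. Chromosome levels used protein-coding genes averaging 5 RPKM or more. A column headed with the letters of IGF1 transposed was matched to tumor 132 by its number.

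Named genes are the 12 with the smallest p-values in each direction (leaving out 1 and 4 predicted genes or pseudogenes with smaller p-values), genes past the adjusted threshold, the receptor, ligand and binding protein lists, and the member with the smallest p-value in each direction of 40 other lists; 2 of these genes are not reported here. Other genes named were chosen after their values were seen. The members and all 42 lists were chosen with earlier results of these data known. Tried as alternatives were pseudocounts of 0.1 or 1, the 35563 genes not at 0 everywhere, a minimum of 5 RPKM, quantile and upper quartile scaling, no trend, a robust step, a fit of the 20 tumors alone, library size as a covariate, no pseudogenes, limma voom on recovered reads (scaled to each tumor's total, without TMM factors; this replaced a TMM-scaled run made first, which also left 0 genes past the threshold), and each tumor left out. The chromosome comparison and the lists without each tumor were added after seeing the data. Python 3.11.15, pandas 2.3.3, scipy 1.17.1 and matplotlib 3.10.9 were used.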

Additional observations from a re-analysis of the deposited data

Results flagged for a closer look

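In 22 cases the highest or lowest tumor of a group of 10 lay far from the other 9, by a gap that was large relative to the range of the group; 226 groups of values were examined, and chance gives such a gap in about 1 in 20 groups. Library size was highest in IGF1_143, at 51.88 M reads, and in insulin_8, at 51.89 M reads.

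Among the IGF1 tumors, IGF1_160 was lowest in Eif4ebp2 (6.241 RPKM), Mki67 (6.877 RPKM), Pik3r1 (2.811 RPKM) and mt-Nd4l (17.44 RPKM). IGF1_145 was lowest in Grb2 (37.27 RPKM) and highest in Glycam1 (1.52 RPKM) and Pappa (1.793 RPKM). IGF1_158 was lowest in Krt18 (2.1 RPKM) and Vim (2434.6 RPKM) and highest in Myh11 (9.043 RPKM), and IGF1_132 was highest in Spry1 (17.3 RPKM).

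Among the insulin tumors, insulin_13 was highest in Klk1 (302.3 RPKM) and Slc4a1 (5.742 RPKM) and lowest in Rbmx2 (6.636 RPKM). insulin_8 was highest in Glycam1 (480.1 RPKM) and Shank1 (2.888 RPKM). insulin_21 was highest in Igf2 (1449.2 RPKM) and lowest in Myg1 (28.1 RPKM), insulin_9 was highest in Myh4 (146.6 RPKM), and insulin_18 was lowest in Krt10 (0.912 RPKM).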

How the results depend on the processing

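The number of genes past the adjusted threshold was 1 (Exosc4) and became 0 with a pseudocount of 0.1 (Exosc4 adjusted p = 0.0513), all genes with a nonzero value (0.0668), no intensity trend (0.0661), upper quartile scaling (0.178), quantile normalization (0.104), only the IGF1 and insulin tumors in the fit (0.400), library size as a covariate (0.0684) and limma voom on recovered reads (0.103, with 1144 genes at an unadjusted p-value under 0.05). It stayed 1 with a pseudocount of 1, a minimum of 5 RPKM, the robust step and without pseudogenes. Leaving out each tumor gave between 0 and 1 genes, with limma adjusted p-values between 0.00417 and 0.215, and 1 gene without insulin_13, insulin_27, IGF1_124, IGF1_136 or IGF1_143. The cause was not tested. Genes at an unadjusted p-value under 0.05 numbered 2004 when all nonzero genes were tested and 795 with a minimum of 5 RPKM, settings that change the number of genes tested.

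Of 112 named genes, 10 changed sign in some fit, none of them past a threshold. Hist2h2be went from -0.106 to 0.005 with quantile normalization and Wnt4 from 0.104 to -0.064 with voom. Leaving out each tumor gave differences of -0.213 to 0.009 for Igf2r, -0.299 to 0.016 for Stc2, -0.028 to 0.334 for Igfbp3, -0.004 to 0.309 for Igfbp4, -0.151 to 0.313 for Retnlg, -0.08 to 0.06 for Ndufs1, -0.179 to 0.212 for Wnt4, -0.126 to 0.453 for Lgals7 and -0.283 to 0.422 for Igfbp2. No paired analysis was made, since the IGF1 and insulin tumors share no replicate numbers and the design held no block.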
